A study of Mus musculus with 6 samples.

Results

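The 10 genes *Nedd4*, *Wwp2*, *Vhl*, *Eloa*, *Elob*, *Eloc*, *Ercc6*, *Ercc8*, *Ddb1* and *Uvssa* encode ubiquitin ligases that act on stalled RNA polymerase II (Pol II). With them are their subunits and the factors that bring them to it. The set is not complete. It leaves out ARMC5, which the study places in a ligase of Pol II under physiological conditions. Their counts were followed in neural progenitor cells (NPCs) that lacked ARMC5, gene by gene. The test between KO and WT NPCs called 0 of the 10, and it called 0 of all 19073 genes tested (0.0%). With TMM-scaled libraries and an unpaired test, the 95% interval of each gene's difference lay between a halving and a doubling of the level in KO NPCs. The genes were chosen by name: each row of the count table whose gene name held one of the 10 symbols was taken, and counts were summed per gene. All 10 were found among 53060 genes or merged loci, and all 10 were among the 19073 that passed the filter on low counts and were tested.

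RNA was sequenced from neurospheres of 3 KO cultures, with the genotype Armc5(-/-), and 3 WT cultures. The cells came from the ganglionic eminences of e13.5 fetuses and were grown to the second passage in 20 ng/ml epidermal growth factor. The labels give the strain of both genotypes as 129 sv X CD1, whereas the study's text describes its KO mice as CD1 x C57BL/6 F1. The genotype is given for the whole animal, no other treatment is named for either group, and since no label ties a culture to a fetus or litter, p-values measured only the spread between these cultures.

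Pol II that stalls, at DNA damage for example, is tagged with ubiquitin on its largest subunit, pulled off the DNA and degraded by the proteasome. Several ligases can do this. NEDD4 and WWP2 are ligases of the HECT type, which carry their own catalytic domain, whereas VHL, ELONGIN A and CSA are substrate receptors that sit on cullin scaffolds, as ARMC5 sits on CUL3. These genes are broadly expressed, in neural progenitors as in other dividing cells.

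Counts at named loci ranged per library from 52995791 to 85170379 in KO NPCs and from 66018919 to 73445736 in WT NPCs. *Armc5*, the deleted gene, was counted 84, 119 and 43 times in KO NPC 1, 2 and 3, against 1966, 2114 and 1797 times in WT NPC 1, 2 and 3, a log2 fold change (log2FC, KO over WT) of -4.68 (standard error, SE, 0.36; adjusted p = 0.0864 by edgeR's quasi-likelihood test with Benjamini-Hochberg adjustment), so even this gene missed the threshold of 0.05. Without KO NPC 3 the log2FC of *Armc5* was -4.45. All 8 neural progenitor markers were detected in every library, with a summed level between 3098 and 4704 CPM (counts scaled by library size) in KO NPCs and between 4197 and 4500 CPM in WT NPCs. KO NPC 3 stood apart from the other 5 libraries. Its progenitor markers did not move one way: the filament gene *Nes* was at 75.9 CPM, against 356 to 484 CPM in the other libraries, whereas *Sox2*, a stem cell transcription factor gene, stood at 812 CPM, against 536 to 626 CPM. Its 6 astrocyte markers summed to 1745 CPM, against 674 and 495 CPM in the other KO libraries and 554 to 923 CPM in WT libraries. The water channel gene *Aqp4*, at 1041 CPM, and the filament gene *Gfap*, at 276 CPM, made up most of that sum. WT NPC 3 came next for both, at 171 and 47.9 CPM. *Aldh1l1* and *Slc1a2*, at 134.5 and 271 CPM in KO NPC 3, lay within the range of the other libraries. The 8 oligodendrocyte markers summed to between 2505 and 3362 CPM in KO NPCs, with KO NPC 3 at 2983 CPM, and to between 2503 and 3087 CPM in WT NPCs. Among them the myelin gene *Mbp* was at 518 CPM in KO NPC 3. It was at 8.42 and 52.0 CPM in the other KO libraries and at 11.1 to 84.5 CPM in WT libraries. *Mag* (71.8 CPM), *Cnp* (690 CPM) and *Sox10* (240 CPM) were also highest in KO NPC 3. *Olig1* (655 CPM) and *Olig2* (607 CPM) were lowest there, against 1176 to 1352 CPM and 940 to 1097 CPM elsewhere. *Pdgfra* lay within the range of the other libraries. The sum of the list lay within that range too, although its genes moved both ways. *Mog*, a defining oligodendrocyte marker, was at 0 counts in KO NPC 1 and WT NPC 1. The 8 neuron markers summed to between 803 and 1378 CPM in KO NPCs and between 818 and 1474 CPM in WT NPCs. *Map2* made up most of each sum and was highest in WT NPC 1. Each of the other neuron markers was higher in both libraries numbered 3 than in the rest. *Dcx* was at 287 CPM in KO NPC 3 and 232 CPM in WT NPC 3, against 17.3 to 64.1 CPM elsewhere. *Gad1* was at 66.4 and 39.2 CPM, against 4.90 to 6.58 CPM. KO NPC 3 thus shared a part of its shift with WT NPC 3. The 4 microglia markers and the 5 fibroblast markers summed to at most 1.33 and 7.46 CPM in any library, with *Aif1*, *Cx3cr1*, *Csf1r*, *Col3a1*, *Lum* and *Dcn* at 0 counts in at least 1 library. In bulk RNA, fewer cells of a type and less RNA per cell cannot be told apart, and the log2FCs of the 10 genes and of their partners are given with and without KO NPC 3.

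*Nedd4* encodes the HECT ligase that places the first ubiquitin on the largest Pol II subunit, and it lies on chromosome 9 of GRCm38 from 72661937 to 72749852 (plus strand), in a locus merged with *Gm36936* and a second gene model. It had 1000.1, 979 and 827 CPM in KO NPC 1, 2 and 3, against 1041, 996 and 885 CPM in WT NPC 1, 2 and 3. The groups overlapped, and number 3 was the lowest library in both genotypes. The means were 935 ± 94.3 CPM in KO NPCs and 974 ± 80.6 CPM in WT NPCs (SD, n = 3 each). *Nedd4* had a log2FC of -0.058 (SE 0.16, 95% interval -0.46 to 0.34, adjusted p = 0.983 by edgeR's quasi-likelihood test), or 0.022 without KO NPC 3. *Wwp2*, on chromosome 8 from 107436365 to 107558595 (plus strand), encodes a related HECT ligase of the same subunit, and the microRNA gene *Mir140* lies within it. It had 29.8, 34.4 and 37.6 CPM in KO libraries, against 29.8, 34.5 and 31.3 CPM in WT libraries. Libraries numbered 1 were nearly equal between genotypes, as were those numbered 2, and only number 3 was higher in KO. *Wwp2* had a log2FC of 0.09 (SE 0.16, 95% interval -0.30 to 0.48), or 0.0089 without KO NPC 3.

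**Figure D1:**
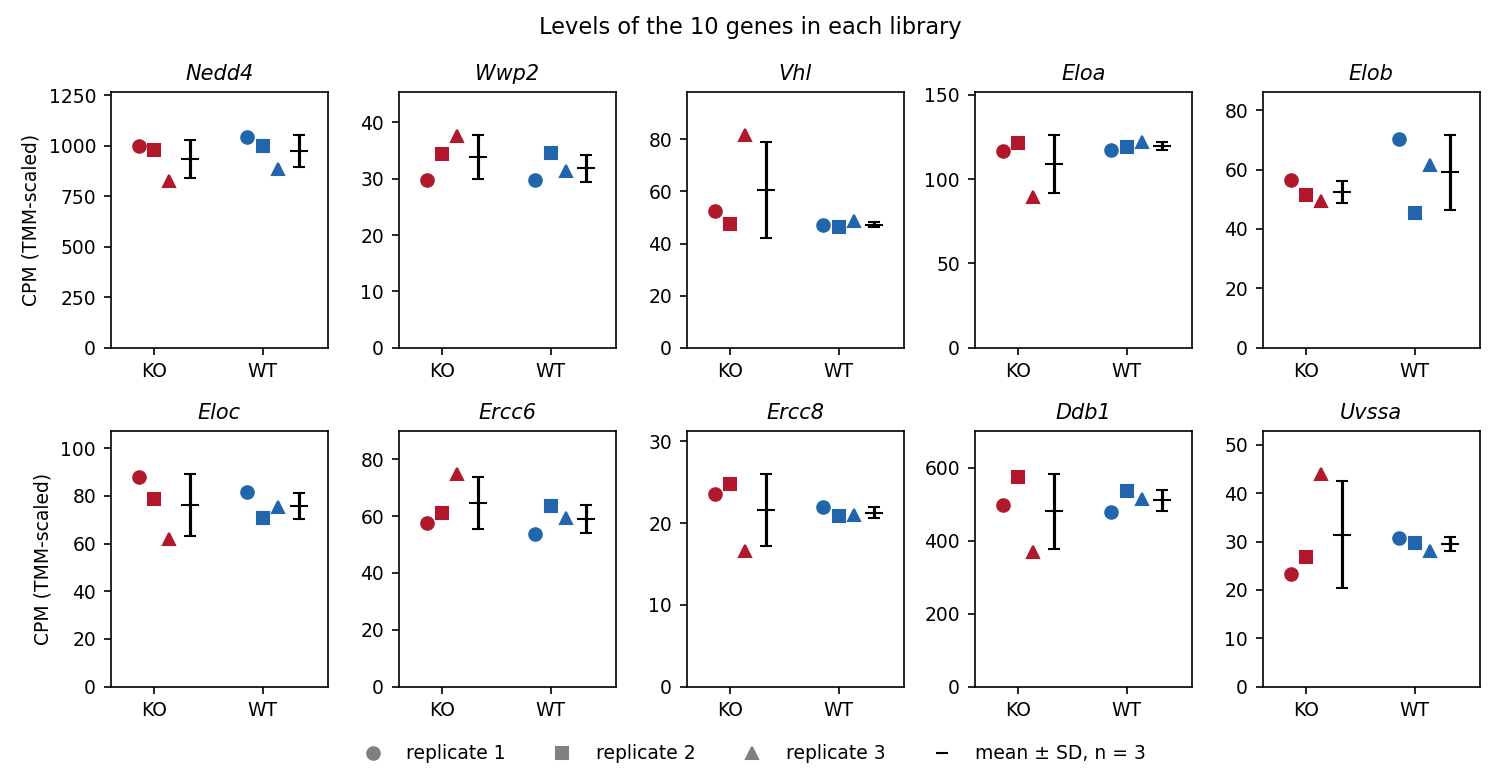
Level of each of the 10 genes (CPM on TMM-scaled library sizes, axis from 0) in the 3 KO libraries (left, red) and the 3 WT libraries (right, blue). Symbols mark the replicate number and bars the mean ± SD (n = 3). The groups overlap for every gene, and KO NPC 3 (red triangle) is the highest library for *Wwp2*, *Vhl*, *Ercc6* and *Uvssa*.

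*Vhl* encodes the substrate receptor of a CUL2 ligase, known best for the degradation of hypoxia-inducible factors (HIFs) in oxygen, and it lies on chromosome 6 from 113623959 to 113631633 (plus strand). It had 52.6, 47.6 and 81.8 CPM in KO NPC 1, 2 and 3, against 47.1, 46.3 and 48.5 CPM in WT NPC 1, 2 and 3. KO NPC 3 lay above the range of the other 5 libraries. KO NPC 1 was also above every WT library, whereas KO NPC 2 lay within the WT range, and so the groups overlapped. The means were 60.7 ± 18.5 CPM in KO NPCs and 47.3 ± 1.12 CPM in WT NPCs (SD, n = 3 each). *Vhl* had the largest log2FC of the 10 genes in size, at 0.36 (SE 0.23, 95% interval -0.21 to 0.92, unadjusted p = 0.173 and adjusted p = 0.983 by edgeR's quasi-likelihood test). Among all genes tested, 35.6% had a larger change in either direction. Without KO NPC 3 the log2FC of *Vhl* was 0.08 (95% interval -0.17 to 0.34). The difference of *Vhl* on the log2 scale, KO minus WT, was 0.16 within number 1, 0.04 within number 2 and 0.75 within number 3.

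ELONGIN B and ELONGIN C form an adaptor that the VHL and ELONGIN A ligases have in common. *Eloa* encodes ELONGIN A, an elongation factor and the substrate receptor of a CUL5 ligase that extends the ubiquitin chain on Pol II, and it lies on chromosome 4 from 136003368 to 136021763 (minus strand). It had 117, 121 and 89.2 CPM in KO NPC 1, 2 and 3, against 117, 119 and 122 CPM in WT NPC 1, 2 and 3. The 5 libraries other than KO NPC 3 lay close together, and KO NPC 3 was below all of them. *Eloa* had a log2FC of -0.13 (SE 0.17, 95% interval -0.54 to 0.27), or -0.0073 without KO NPC 3. *Elob* encodes the ubiquitin-like subunit ELONGIN B (chromosome 17, 23811901 to 23829136, minus strand). Its locus in the count table reaches beyond the annotated gene, which begins at 23824738. The locus overlaps *Srrm2* on the opposite strand by 12841 bases, introns included, against 4 bases for the annotated gene. The exonic length differed little, at 1440 bases for the locus and 1398 bases for the annotated exons. It had 56.4, 51.3 and 49.4 CPM in KO libraries, against 70.4, 45.4 and 61.5 CPM in WT libraries. The KO range lay wholly within the WT range, and this was the one gene of the 10 for which KO NPC 3 was neither the highest nor the lowest library. *Elob* had a log2FC of -0.17 (SE 0.20, 95% interval -0.66 to 0.31), or -0.13 without KO NPC 3. *Eloc* encodes ELONGIN C, which binds the receptor to the cullin (chromosome 1, 16641725 to 16657042, minus strand). It had 87.8, 78.8 and 61.8 CPM in KO libraries, against 81.5, 70.7 and 75.3 CPM in WT libraries. KO libraries were thus both the highest and the lowest of the 6. *Eloc* had a log2FC of 0.0061 (SE 0.18, 95% interval -0.43 to 0.44), or 0.13 without KO NPC 3. The sources used here do not say whether counting used the strand of the reads, so reads of *Srrm2* in the *Elob* locus, and of the antisense gene *Gm13008* in that of *Eloa*, cannot be told apart from those of the elongin genes.

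*Ercc6* encodes CSB, the ATPase that recognizes stalled Pol II in transcription-coupled repair, and it lies on chromosome 14 from 32513521 to 32580990 (plus strand). It had 57.6, 61.0 and 74.9 CPM in KO NPC 1, 2 and 3, against 53.8, 63.55 and 59.3 CPM in WT NPC 1, 2 and 3. KO NPC 3 was the highest library, and the other 2 KO libraries lay within the WT range. *Ercc6* had a log2FC of 0.13 (SE 0.17, 95% interval -0.27 to 0.53), or 0.0096 without KO NPC 3. *Ercc8* encodes CSA, the substrate receptor that CSB recruits (chromosome 13, 108158731 to 108195364, plus strand). It had 23.6, 24.7 and 16.6 CPM in KO libraries, against 22.0, 20.8 and 21.0 CPM in WT libraries. KO NPC 1 and 2 were above all WT libraries and KO NPC 3 was below all of them. *Ercc8* had a log2FC of 0.024 (SE 0.20, 95% interval -0.47 to 0.51), or 0.18 without KO NPC 3 (95% interval -0.10 to 0.46).

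*Ddb1* encodes the linker that joins CSA and many other receptors to CUL4, and it lies on chromosome 19 from 10604092 to 10629819 (plus strand), where the first 1563 bases of the locus overlap *Tkfc* on the opposite strand. It had 499, 574 and 370.4 CPM in KO NPC 1, 2 and 3, against 479.95, 537 and 514 CPM in WT NPC 1, 2 and 3. The 2 extremes were KO libraries, with KO NPC 2 at the top and KO NPC 3 at the bottom. *Ddb1* had a log2FC of -0.085 (SE 0.20, 95% interval -0.57 to 0.40), or 0.07 without KO NPC 3. *Uvssa* encodes the scaffold that stabilizes CSB and brings the repair factor TFIIH to stalled Pol II (chromosome 5, 33378549 to 33419754, plus strand). It had 23.4, 26.8 and 44.0 CPM in KO libraries, against 30.8, 29.7 and 28.0 CPM in WT libraries. KO NPC 1 and 2 were below every WT library, whereas KO NPC 3 was above every one. *Uvssa* had a log2FC of 0.09 (SE 0.26, 95% interval -0.55 to 0.73), which turned to -0.23 without KO NPC 3 (95% interval -0.55 to 0.08). The means of *Uvssa* were 31.4 ± 11.1 CPM in KO NPCs and 29.5 ± 1.43 CPM in WT NPCs (SD, n = 3 each), so the KO spread exceeded the difference.

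By edgeR's quasi-likelihood test with Benjamini-Hochberg adjustment over all genes tested, 0 of the 10 genes passed an adjusted p under 0.05, against a background of 0 of 19073 genes (0.0%). At an unadjusted p under 0.05 there were 0 of the 10 as well, against 308 genes (1.61%). Tests that called more genes called 0 of the 10 too: edgeR's likelihood ratio test called 17 genes (0.0891%), DESeq2 35 genes (0.184%), and the first of these with a replicate block 38 genes (0.199%). Called genes numbered 4 with libraries scaled to the 7SK RNA gene *Rn7sk* (0.021%), 8 on that scale with the likelihood ratio test (0.0419%) and 5 without a filter (0.0117%), with 0 of the 10 among them in each case. The adjusted p from the quasi-likelihood test was 0.983 for 8 of the genes, 0.993 for *Ercc8* and 0.997 for *Eloc*. For 0 of the 10 were all KO libraries above all WT libraries, which held for 2.74% of all genes tested, and for 0 were they all below, which held for 3.28%. Of the 10 log2FCs, 6 were above 0 and 4 below, and their median was 0.02, against -0.01 over all genes tested. Without KO NPC 3 the medians were 0.02 and -0.01.

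**Figure D2:**
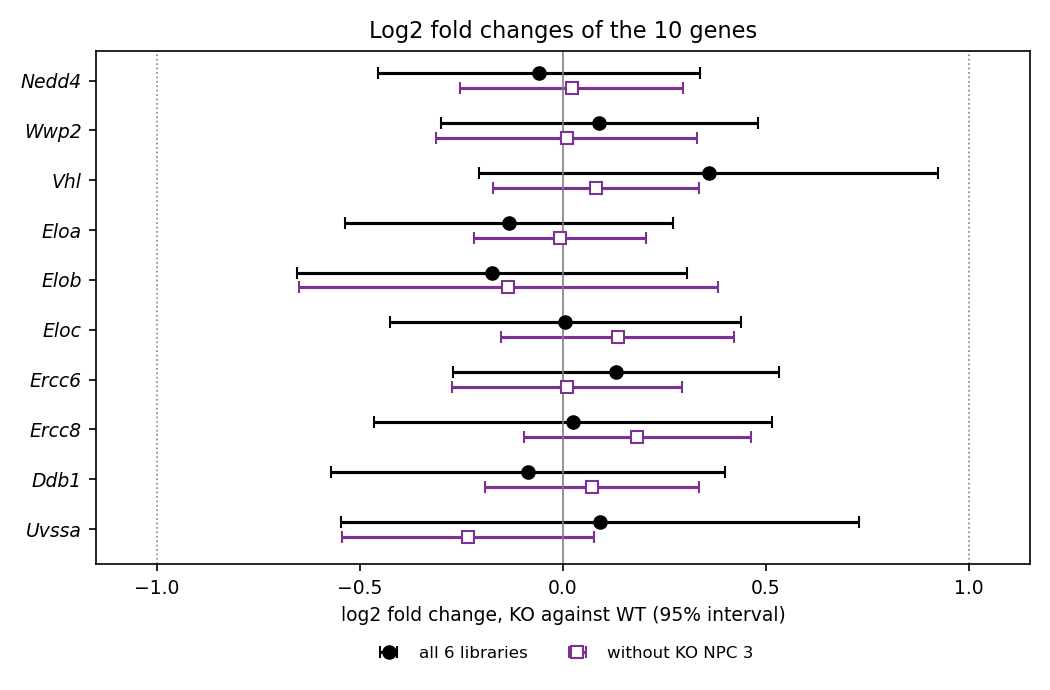
Log2FC (KO against WT, with its 95% interval) of each gene from edgeR's quasi-likelihood fit, with all 6 libraries (filled circles) and without KO NPC 3 (open squares). Dotted lines mark a halving and a doubling; all 10 intervals lie between them, and the point for *Vhl* moves from 0.36 with all libraries to 0.08 without KO NPC 3.

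A test that missed the threshold does not show equal levels, so the intervals matter more than the p-values. With all libraries and TMM scaling, the upper bound of the fold, KO over WT, was 1.90 for *Vhl* and 1.66 for *Uvssa*. These were the 2 genes for which a level at least 1.5-fold higher in KO NPCs lay within the interval. The lower bound was lowest for *Elob*, at 0.635. For the other 8 the upper bound ranged from 1.21 for *Eloa* to 1.45 for *Ercc6*. Without KO NPC 3 the upper bounds lay between 1.06 for *Uvssa* and 1.38 for *Ercc8*, and that of *Elob* was 1.30, above its 1.24 with all libraries.

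KO NPC 3 was the highest of the 6 libraries for 4 of the 10 genes (*Wwp2*, *Vhl*, *Ercc6* and *Uvssa*) and the lowest for 5 (*Nedd4*, *Eloa*, *Eloc*, *Ercc8* and *Ddb1*). It was the highest for 34.9% of all genes tested and the lowest for 36.7%, so the place of this library at an end of the range was common among all genes. Relative to the mean of the other 5 libraries, KO NPC 3 was farthest above for *Vhl*, by 0.76 on the log2 scale, and *Uvssa*, by 0.67. It was farthest below for *Ddb1*, at -0.49, *Ercc8*, at -0.43, and *Eloa*, at -0.42. The same library had high *Mbp*, *Aqp4* and *Gfap* and low *Nes*, *Olig1* and *Olig2*, as given above. Whether these markers are related to the values of the 10 genes was not tested. Across the 6 libraries the closest pair of the 45 pairs of these genes was *Eloa* and *Ddb1* (Pearson r = 0.94 of log2 CPM), and the pair least alike was *Vhl* and *Eloa* (r = -0.98). These values are descriptions over 6 libraries of 2 genotypes, and KO NPC 3 was an extreme in all 3 of these genes.

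**Figure D3:**
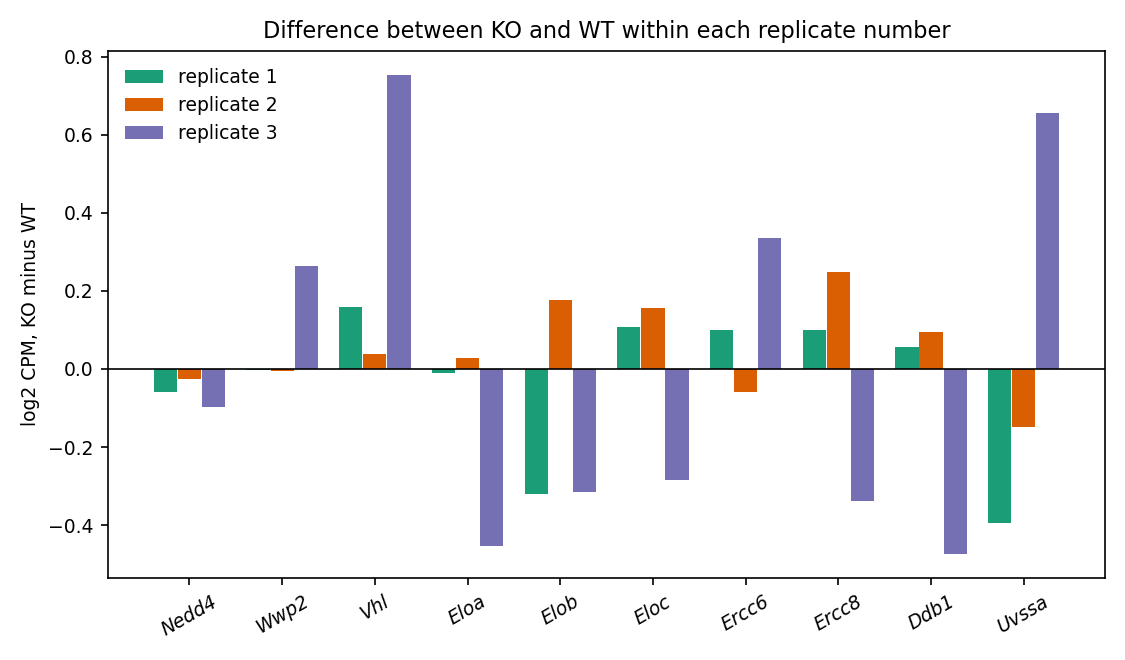
Difference on the log2 scale, KO minus WT, between the libraries that share a replicate number, for each of the 10 genes. Values for numbers 1 and 2 lie between -0.40 and 0.25, whereas number 3 reaches 0.75 for *Vhl* and -0.47 for *Ddb1*.

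Among the other 19072 genes tested, *Sspo* (r = 0.999), *Bin1* (r = 0.997) and *1700012D14Rik* (r = 0.996) were most like *Vhl* over the 6 libraries. *Bin1*, which encodes a membrane-bending protein of brain and muscle, had 46.9, 42.3 and 70.1 CPM in KO libraries, against 42.8, 43.0 and 44.7 CPM in WT libraries. As with *Vhl*, KO NPC 3 alone stood far above the rest, and the likeness is a description over 6 libraries.

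The bases just before the start of each gene are shown for 2 genes whose highest library was KO NPC 3 (*Vhl* and *Ercc6*) and for 2 whose lowest library it was (*Nedd4*, first entry, and *Ercc8*). The sequences are the 250 bases up to the start in RefSeq (GRCm38.p6), 5′ to 3′ on the strand of the gene, and capitals mark GC boxes, written GGGCGG or, on the other strand, CCGCCC.
Vhl chr6:113623744-113623993 (plus strand): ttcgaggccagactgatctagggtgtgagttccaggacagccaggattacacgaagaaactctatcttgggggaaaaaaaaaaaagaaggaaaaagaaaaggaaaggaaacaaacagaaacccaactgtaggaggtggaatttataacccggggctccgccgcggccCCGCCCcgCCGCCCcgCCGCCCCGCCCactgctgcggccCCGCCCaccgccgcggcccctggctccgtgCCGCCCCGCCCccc
Ercc6 chr14:32513271-32513520 (plus strand): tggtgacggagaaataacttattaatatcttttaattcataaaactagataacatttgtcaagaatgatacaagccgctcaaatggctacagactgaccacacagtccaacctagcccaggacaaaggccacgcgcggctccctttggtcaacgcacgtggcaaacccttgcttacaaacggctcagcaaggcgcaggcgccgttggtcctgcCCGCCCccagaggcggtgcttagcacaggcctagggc
Nedd4 chr9:72662081-72662330 (plus strand): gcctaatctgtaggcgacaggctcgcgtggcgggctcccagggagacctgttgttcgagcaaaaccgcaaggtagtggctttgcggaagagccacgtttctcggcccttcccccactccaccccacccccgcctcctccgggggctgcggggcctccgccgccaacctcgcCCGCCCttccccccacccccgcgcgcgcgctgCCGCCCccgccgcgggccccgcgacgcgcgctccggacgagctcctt
Ercc8 chr13:108158488-108158737 (plus strand): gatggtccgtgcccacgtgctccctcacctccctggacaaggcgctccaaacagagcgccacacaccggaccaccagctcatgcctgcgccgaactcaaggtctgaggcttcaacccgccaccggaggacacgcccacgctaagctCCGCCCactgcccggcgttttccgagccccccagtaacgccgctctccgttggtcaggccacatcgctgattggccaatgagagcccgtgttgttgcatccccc
The *Vhl* sequence held 7 GC boxes, that of *Nedd4* 2, and those of *Ercc6* and *Ercc8* 1 each. A GC box was found for 9 of the 9 genes with an entry in the RefSeq table, of which *Nedd4* has 2 entries and the second holds none, against 32.7% of 32851 promoters of the same length. The CpG count was 20 for *Vhl*, 13 for *Ercc6*, 32 for *Nedd4* and 20 for *Ercc8*, against a median of 6 over all promoters (quartiles 2 and 16). Of 11 motifs searched on both strands, the other 10 were found for at most 3 of the 9 genes. The E box CACGTG was found for *Ercc6*, *Ercc8* and *Wwp2* (6.02% of all promoters), and TATAAA for *Vhl* and *Wwp2* (12.4%). The hypoxia motif ACGTGC was found for *Ercc6* and *Ercc8* (4.92%), where it overlaps the E box. A YY1 motif, AAGATGGC, was found for *Elob* (1.56%) and a CCAAT box, CCAATC, for *Ercc8* (14.6%). Found for 0 of the 9 were the ETS motif CCGGAAGT (2.88%), the CRE TGACGTCA (1.55%) and the consensus motifs of NRF1 (0.782%), ZBTB33 (0.39%) and ZNF143 (0.262%). Since all 9 genes had a GC box, its presence cannot separate genes that were high in KO NPC 3 from genes that were low.

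Levels were compared between genes per kilobase, with the exonic length of the locus as the authors give it. In WT NPCs *Ddb1* was at the top with 76.6 CPM per kilobase, followed by *Nedd4* at 47.5, *Elob* at 41.1, *Eloa* at 20.1, *Vhl* at 15.8 and *Eloc* at 7.11 CPM per kilobase. *Ercc6* at 3.67, *Wwp2* at 3.59, *Uvssa* at 3.40 and *Ercc8* at 2.78 CPM per kilobase closed the order. So the linker and the HECT ligase NEDD4 led, and the 3 repair genes *Ercc6*, *Uvssa* and *Ercc8* were among the last 4. Neighbors whose WT libraries overlapped were *Nedd4* and *Elob*, *Ercc6* and *Wwp2*, and *Wwp2* and *Uvssa*. In KO NPCs the order was the same except that *Vhl*, at 20.2 CPM per kilobase, stood above *Eloa*, at 18.3, and the libraries of those 2 genes overlapped. The order depended on the length used: with the longest protein-coding transcript in place of the locus, *Nedd4* led with 170.1 CPM per kilobase in KO NPCs and 177 in WT NPCs, and in WT NPCs 2 of the 10 genes, *Elob* and *Wwp2*, kept their place.

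**Figure D4:**
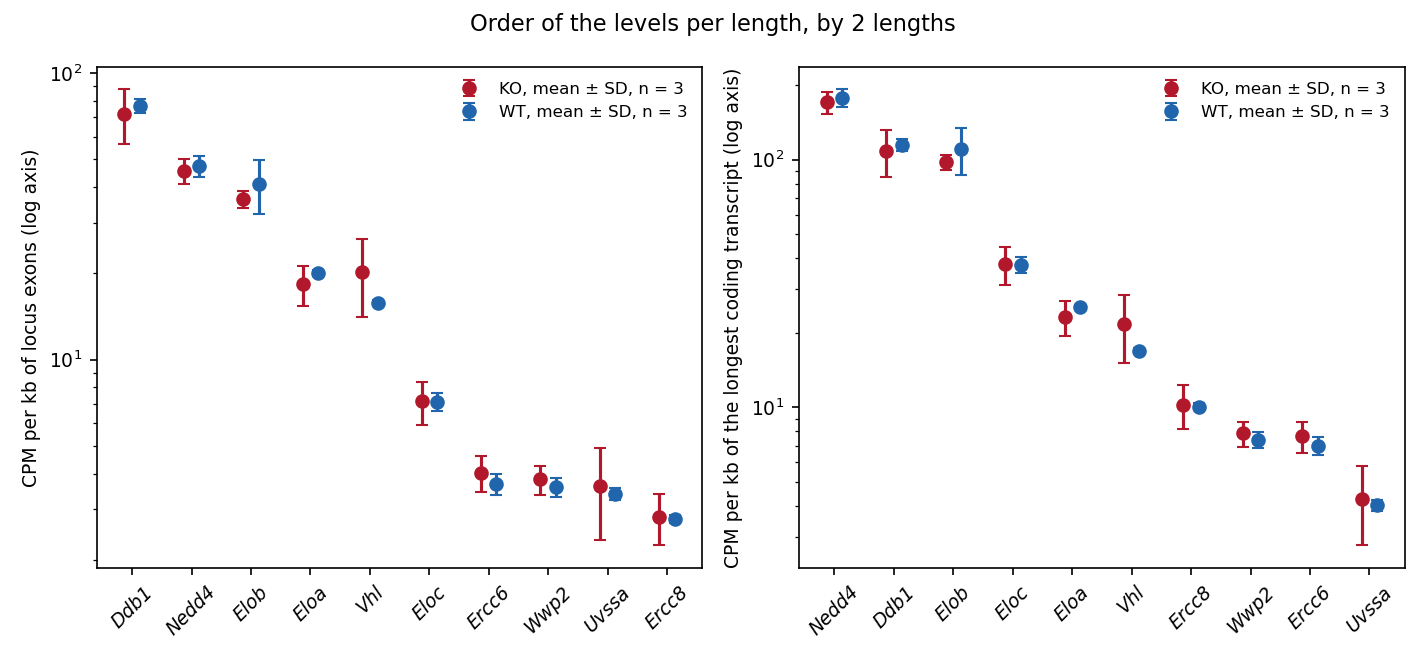
Mean level per kilobase (log axes, ± SD, n = 3) of the 10 genes in KO (red) and WT (blue) NPCs, by the exonic length of the locus (left panel) and by the longest coding transcript (right panel), each in the order of the WT means. By locus length the levels run from 72.2 CPM per kilobase in KO and 76.6 in WT for *Ddb1* to 2.82 in KO and 2.78 in WT for *Ercc8*.

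The partners of these genes were followed in 8 lists, chosen by function, of which 79 genes were tested. An adjusted p under 0.05 was reached by 0 of the 79 with edgeR's quasi-likelihood test, with its likelihood ratio test and with DESeq2, while 3 had an unadjusted p under 0.05, which 1.61% of all genes tested had. All KO libraries were above all WT libraries for 4 of the 79 (*Ubxn7*, *Epas1*, *Dcaf5* and *Nploc4*), against the 2.74% of all genes, and below for 4 (*Polr2a*, *Ercc5*, *Cul4a* and *Det1*), against the 3.28%. *Det1* was named after its values were seen. *Polr2a*, which encodes the largest Pol II subunit, had 245, 275 and 215 CPM in KO libraries, against 361, 432 and 397 CPM in WT libraries. Every KO library lay below every WT library. *Polr2a* had a log2FC of -0.69 (SE 0.16, unadjusted p = 0.0049, adjusted p = 0.983 by edgeR's quasi-likelihood test), or -0.61 without KO NPC 3. These counts are of RNA, not of the protein that the ligases tag. In KO NPCs the study reports less *Polr2a* mRNA by RT-qPCR but more POLR2A protein by immunoblotting. Of the 12 Pol II subunit genes, 1 had a log2FC above 0 and 11 below. Among them *Polr2k*, a small subunit, was at -0.43 (SE 0.34), or -0.24 without KO NPC 3. Their median was -0.14, and it was 0.04 without KO NPC 3.

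*Ubxn7* encodes an adaptor that brings the segregase p97, which extracts ubiquitinated proteins, to cullin ligases. It had 187, 187 and 173 CPM in KO libraries, against 98.6, 109.8 and 157 CPM in WT libraries. WT NPC 3 came closest to the KO libraries, and the groups did not overlap. *Ubxn7* had a log2FC of 0.59 (SE 0.21, unadjusted p = 0.0291, adjusted p = 0.983 by edgeR's quasi-likelihood test), or 0.62 without KO NPC 3. *Nploc4*, which encodes a cofactor of p97, had a log2FC of 0.17 (SE 0.14), or 0.20 without KO NPC 3. The 8 genes of extraction and of other Pol II ubiquitination had 4 values above 0 and 4 below (median -0.0065 with all libraries, 0.05 without KO NPC 3).

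*Epas1* encodes HIF-2α, a protein that VHL marks for degradation. It had 29.3, 25.3 and 79.4 CPM in KO libraries, against 19.0, 17.9 and 22.1 CPM in WT libraries. Every KO library was above every WT library, and KO NPC 3 was far above the others. *Epas1* had a log2FC of 1.18 (SE 0.46, unadjusted p = 0.0398, adjusted p = 0.983 by edgeR's quasi-likelihood test), or 0.48 without KO NPC 3. *Arnt*, the partner subunit of the HIFs, was at -0.10 (SE 0.13), and at -0.090 without KO NPC 3. The 7 genes on the HIF side of VHL had 3 values above 0 and 4 below (median -0.09 with all libraries, 0.05 without KO NPC 3). Of 12 HIF target genes 11 were tested (*Car9* was too low), with 3 values above 0 and 8 below (median -0.26 with all libraries, -0.15 without KO NPC 3). Among these targets *Vegfa*, the vascular growth factor gene, was at -0.45 (SE 0.41), and at -0.20 without KO NPC 3. *Pfkfb3*, a glycolytic regulator, was at -0.33 (SE 0.18), and at -0.24 without it.

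The 10 cullins and RING partners, which carry the receptors, had 3 log2FCs above 0 and 7 below (median -0.07, and 0.08 without KO NPC 3). *Cul4a*, the scaffold for DDB1, was at -0.11 (SE 0.13), and at -0.094 without KO NPC 3. *Nedd8*, the modifier that activates cullins, was at -0.19 (SE 0.23) in a locus merged with 4 other genes, and turned to 0.016 without KO NPC 3. The 9 NEDD4 family and adaptor genes had 3 above 0 and 6 below (median -0.09), with *Ndfip1*, a membrane adaptor of NEDD4, at -0.24 (SE 0.20), or -0.19 without KO NPC 3. *Hecw2*, a HECT ligase of the family, was at -0.34 (SE 0.32), and at -0.15 without KO NPC 3. The 13 transcription-coupled repair partners had 4 above 0 and 9 below (median -0.11). Among them *Ercc5*, the repair endonuclease XPG, was lower in each KO library than in any WT library, at -0.30 (SE 0.16), or -0.22 without KO NPC 3. *Ercc3*, the helicase XPB of TFIIH, was at -0.16 (SE 0.18), and at -0.056 without KO NPC 3. The 9 DDB1 partners had 5 above 0 and 4 below (median 0.0020). *Dcaf5*, a CUL4 receptor gene, was at 0.28 (SE 0.18) and at 0.091 without KO NPC 3, and *Ddb2*, the receptor of global genome repair, was at 0.51 (SE 0.44) and at -0.085 without KO NPC 3. In the NEDD4 and repair lists the medians stayed below 0 without KO NPC 3, at -0.06 and -0.02.

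**Figure D5:**
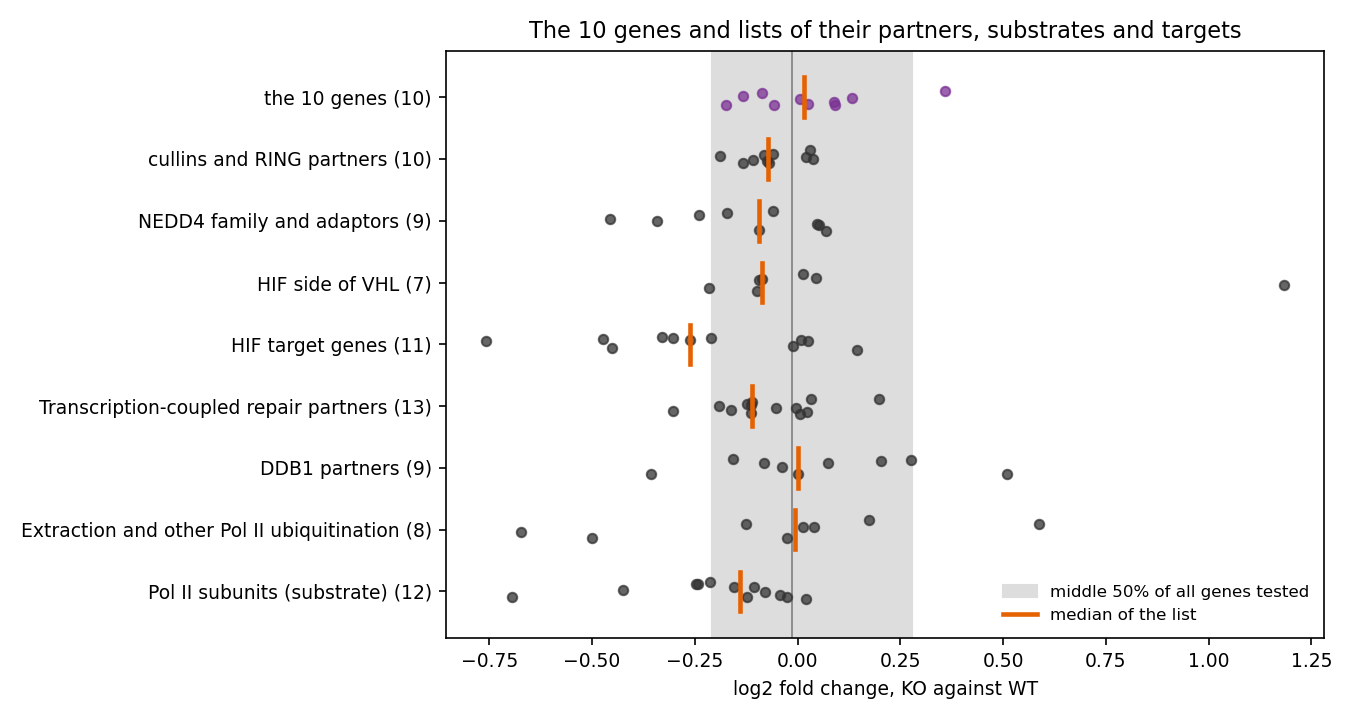
Log2FC, KO against WT, of each tested gene in the 8 partner lists and of the 10 genes, with each list's median (orange) and the middle 50% of all genes tested (grey band). The medians run from -0.26 for HIF target genes, below the grey band, to 0.02 for the 10 genes. The median over all genes tested is -0.01.

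Scaling to *Rn7sk* in place of TMM moved the median log2FC of all genes tested to -0.26, against -0.01 with TMM. *Rn7sk* was counted 552680 times in WT NPC 3, the fewest of the 6 libraries. It was counted 814439 and 1154087 times in WT NPC 1 and 2, and 820758 to 1137683 times in KO NPCs. How far the shift rests on WT NPC 3 was not tested. On that scale *Vhl*, at 0.10, was the one gene of the 10 above 0, and 6 of the 10 lay above the median of all genes, as with TMM. Read against that median, *Vhl* was at 0.36, *Ercc6* at 0.14, *Wwp2* at 0.10 and *Uvssa* at 0.10, whereas *Elob* was at -0.19 and *Eloa* at -0.13.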

How the data were processed

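RNA-seq was done on NPCs from 3 KO and 3 WT neurosphere cultures. The authors depleted rRNA, made directional libraries and sequenced them in paired-end mode. The submitters' processing notes name GRCm38, STAR, StringTie, Trimmomatic, Picard and edgeR without versions. How reads were assigned to loci, and with which strand setting, was not given in the sources used here. The deposited counts are the authors' whole-number counts per locus, neither scaled nor filtered. Beside them the authors deposited log2 values (log2 CPM, and log2 counts relative to *Rn7sk*, with group means), which were not used. Locus lengths were the authors' own.

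Counts of the 53103 named loci were added up per gene, and the 6596 other loci, with 1.31% to 4.89% of a library's counts, were left out. Of the named loci 1707 hold several genes, whose counts cannot be separated. Genes were filtered with filterByExpr (minimum count 10, minimum total 15), scaled by TMM and compared between genotypes by edgeR's quasi-likelihood test with Benjamini-Hochberg adjustment (threshold 0.05). CPM used TMM-scaled library sizes, correlations used a prior count of 2, and a standard error is the log2 fold change over the root of its F. R 4.3.3, edgeR 4.0.16 and DESeq2 1.42.0 were used, and the test was checked on simulated counts, where it missed most of the changed genes.

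The 10 genes, the lists and the 11 motifs were chosen with earlier results of these data known. Other genes named were the deleted gene, *Rn7sk*, the 2 of lowest unadjusted p in each list, the 3 most like *Vhl*, and cell type markers. *Det1*, *Car9* and overlapping or merged genes were named beside these. The study describes paired biological replicates, and the replicate numbers were taken to mark the pairs. After removing group means, same-numbered KO and WT libraries correlated across genes at 0.413, 0.169 and 0.195, against at most 0.0579 for other combinations. Deviations from a group mean cancel out within the group, so these correlations depend on each other. The main test had no block, so the standard errors and intervals given do not use this pairing. Alternatives were *Rn7sk* or total-count scaling, no filter, a minimum of 1 CPM in 3 libraries, the likelihood ratio test, DESeq2, the replicate number as a block, each library left out, both libraries numbered 3 left out, and another length. Promoter sequences came from RefSeq (GRCm38.p6) and the coordinates of the 10 genes are those of the deposited loci on GRCm38, compared with the GENCODE annotation. The table held a promoter for 9 of the 10 genes, and *Eloc* is named only. One gene of the marker lists is not reported here and entered no sum.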

Additional observations from a re-analysis of the deposited data

Results flagged for a closer look

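In KO NPC 3, 4.89% of the counts lay at loci that name no gene, against 1.31% to 1.72% in the other 5 libraries. These loci enter no comparison above.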

How the results depend on the processing

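None of the 10 genes was called under any of the 16 alternatives, nor was any at an unadjusted p under 0.05, and their lowest adjusted p was 0.839 (*Vhl* without KO NPC 1, by edgeR's quasi-likelihood test). *Vhl* stayed above 0 and *Elob* below 0 throughout. The signs of the others turned in 27 recomputed log2 fold changes and stayed in the other 133, *Vhl* and *Elob* included, with no call gained or lost. On the *Rn7sk* scale *Wwp2* was at -0.16, *Eloc* at -0.24, *Ercc6* at -0.12, *Ercc8* at -0.22 and *Uvssa* at -0.16, with either edgeR test. Without a filter *Eloc* was at -0.020 and *Ercc8* at -0.00020. With both libraries numbered 3 left out *Wwp2* was at -0.010, *Eloa* at 0.0024, *Ddb1* at 0.070 and *Uvssa* at -0.28. With single libraries left out, *Vhl* ranged from 0.08 to 0.53, *Nedd4* from -0.13 to 0.022, *Eloc* from -0.11 to 0.13, *Ercc8* from -0.050 to 0.18, *Ddb1* from -0.20 to 0.071 and *Uvssa* from -0.23 to 0.26. With the replicate number as a block, *Eloc* was at -0.0064 by either edgeR test, and the block changed no other sign among the 10. *Vhl* was at 0.32 and *Uvssa* at 0.035 with the block, and 0 genes were called by the quasi-likelihood test. Intervals with the block are not given here.

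Over all genes, the counts called higher and lower were 1 and 3 on the *Rn7sk* scale, 1 and 4 without a filter, 8 and 9 by the likelihood ratio test, 2 and 6 by that test on the *Rn7sk* scale, 21 and 14 by DESeq2, and 24 and 14 by the likelihood ratio test with the block. They were 0 and 0 with any single library left out. On the *Rn7sk* scale the list medians, with either edgeR test, were -0.23 for the 10 genes, -0.32 for cullins, -0.34 for the NEDD4 family, -0.31 for the HIF side, -0.31 for repair partners, -0.26 for DDB1 partners, -0.25 for extraction, -0.40 for HIF targets and -0.40 for Pol II subunits, to be read against -0.26 for all genes. The median of DDB1 partners was 0.062 with total counts, -0.030 without a filter, 0.042 with the CPM filter and 0.037 without both libraries numbered 3, and ranged from -0.023 to 0.035 with single libraries left out. That of cullins was 0.12 without both libraries numbered 3. With single libraries left out the HIF side ranged from -0.093 to 0.055, the repair partners from -0.12 to -0.020, HIF targets from -0.44 to 0.11 and Pol II subunits from -0.24 to 0.04. In the order of WT levels per length, 2 of the 10 genes kept their place with the longest coding transcript as length. The causes of these shifts were not tested. There were 3 cultures a genotype, and KO NPC 3 stood apart. With TMM scaling, a 1.5-fold higher level of *Vhl* or *Uvssa* in KO NPCs could not be told from no change. Nor could a 1.5-fold lower level of *Elob*. These limits hold for TMM scaling only. On the *Rn7sk* scale *Elob* was at -0.45, *Eloa* at -0.39, *Ddb1* at -0.34 and *Nedd4* at -0.28, and no intervals are given here.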
